A study of Arabidopsis thaliana with 4 samples.

Results

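The genes described here are 10 major latex protein-like genes of Arabidopsis thaliana, taken as every probe whose locus on the array is MLP328 (AT2G01520), MLP329 (AT2G01530), MLP423 (AT1G24020), MLP43 (AT1G70890), MLP28 (AT1G70830), MLP31 (AT1G70840), MLP34 (AT1G70850), MLP165 (AT1G35260), MLP168 (AT1G35310) or AT4G14060. They are 10 of 22454 genes and other features tested, and 16 probes carry them. The set was chosen by earlier line over wild type log2 ratios of these same arrays, so its ratios are given as a description. No test of the members is offered in support of them.

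Total RNA came from whole Col-0 plants that were 21 days old, untreated, and grown on upright agar plates with 1% sucrose in 12 h of light a day at 25 °C. One group overexpressed full-length VuDREB2A, a cowpea transcription factor, as 35S:VuDREB2A (full length), and the other a shortened form, as 35S:VuDREB2A (truncated). Wild type Col-0 was the partner on every array. The 35S promoter drives expression in most plant cells, and the labels name 1 line per construct, so construct and line cannot be told apart. Each line was hybridised with wild type on 2 Agilent 2-colour arrays: replicate 1 carried the line in Cy3 and replicate 2 carried it in Cy5. A replicate number thus also names a dye orientation. The design text counts 2 wild type replicates, so arrays of the 2 lines with the same number may share wild type RNA, and the lines' ratios are then not independent. A channel had 65.6% to 72.5% of its probes well above background. For the members this held in 128 of 128 probe channels, 0 member spots were saturated, and 0 carried the outlier mark that removes a spot. The local background of 3 member spots was marked as a population outlier, and these spots were kept. The number of arrays limits the precision.

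Major latex proteins were first known from the latex of opium poppy. They belong to the Bet v 1 fold, named after the birch pollen allergen, in which a curved sheet and a long helix enclose a hydrophobic cavity that can hold small ligands. The abscisic acid receptors share this fold. In Arabidopsis, MLP43 is known as a positive regulator of drought tolerance and abscisic acid responses, MLP328 and MLP329 are also named ZCE1 and ZCE2 for their induction by cis-cinnamic acid, and MLP28 is known for its need in vegetative growth. DREB2A-type factors bind the dehydration-responsive element of stress genes.

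The truncated line had the lower transcript level of most of these genes. Of the 10 members, 7 had a log2 ratio below 0 on both truncated arrays, as 33.1% of all tested genes did, and 2, MLP423 and MLP168, were above 0 on both, as 35.3% of all did. MLP31 had 1 array on each side. The median of the members was -0.51 in the truncated line and -0.13 in the full-length line, beside medians of 0.00 and 0.01 over all genes tested. In the full-length line 5 members lay below 0 on both arrays (32.8% of all genes) and 4 above 0 on both (37.4%), and MLP165 had 1 array on each side.

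**Figure D1:**
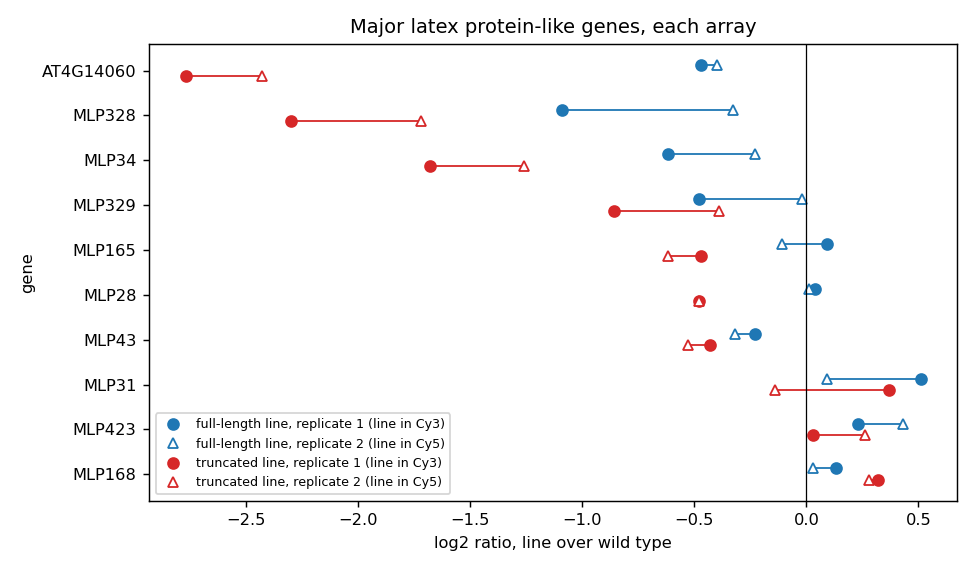
Log2 ratio of line over wild type (horizontal axis) for each of the 10 genes (vertical axis) on each of the 4 arrays, with circles for replicate 1, triangles for replicate 2 and a line joining the arrays of a line. The truncated arrays of AT4G14060, MLP328 and MLP34 lie between -2.77 and -1.26, and their full-length arrays between -1.09 and -0.23.

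AT4G14060, a member with no assigned function in the gene table, stood lowest. Its log2 ratios were -2.77 and -2.43 on truncated replicates 1 and 2, and -0.47 and -0.40 on full-length replicates 1 and 2. All 4 arrays were below 0, and the lines did not overlap. The means were -2.60 ± 0.24 (SD, n = 2), 6.05-fold lower than wild type, in the truncated line and -0.43 ± 0.05, 1.35-fold lower, in the full-length line. In the truncated line this was rank 3 from the lowest of all tested features. The size depended on the processing: the truncated mean was -3.15 with Agilent's own log ratios and -2.32 with no background correction.

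MLP328 had -2.30 and -1.72 on the truncated arrays and -1.09 and -0.33 on the full-length arrays. All were below 0, and in each line the array with the line in Cy3 was the lower one. The means were -2.01 ± 0.41 (4.03-fold lower) in the truncated and -0.71 ± 0.54 (1.64-fold lower) in the full-length line. The full-length arrays differed from each other by more than their mean, so that its value is only loosely fixed: it was -1.09 without full-length replicate 2 and -0.33 without full-length replicate 1.

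MLP329, which lies beside MLP328 on chromosome 2, had smaller ratios. They were -0.86 and -0.39 on the truncated arrays and -0.48 and -0.02 on the full-length arrays, with the Cy3 array again the lower one. The means were -0.63 ± 0.33 and -0.25 ± 0.32. The truncated mean was -0.86 without truncated replicate 2, and the full-length mean -0.02 without full-length replicate 1. With median centring in place of loess the full-length mean was -0.58. The ranges of the lines overlapped. A shift with the dye was not particular to MLP328 and MLP329. Over the 10 members, replicate 1 was the lower array in both lines for 5 and the higher in both for 5. Of all tested genes, 41.7% and 38.2% did the same.

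MLP34 had -1.68 and -1.26 on the truncated arrays and -0.62 and -0.23 on the full-length arrays. The lines did not overlap. The means were -1.47 ± 0.30 (2.76-fold lower) and -0.43 ± 0.27 (1.35-fold lower). Another 2 probes name MLP34, and both were below 0 on all 4 arrays: one had full-length and truncated means of -0.61 ± 0.12 and -1.48 ± 0.19, the other -0.81 ± 0.05 and -1.12 ± 0.02. The direction was thus the same for its 3 probes, while the gap between the lines depended on the probe. With median centring the full-length value was -0.75.

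MLP28 was near wild type in the full-length line and below it in the truncated line. Its ratios were -0.48 and -0.48 on the truncated arrays and 0.04 and 0.01 on the full-length arrays. Its other probe, assigned to another transcript of the gene, had -0.67 ± 0.02 in the truncated line and -0.19 ± 0.08 in the full-length line, so that the full-length direction depended on the probe. With median centring in place of loess the full-length value was -0.29.

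MLP43 was lower in both lines by small amounts that varied little between arrays. It had -0.43 and -0.53 on the truncated arrays (mean -0.48 ± 0.07) and -0.23 and -0.32 on the full-length arrays (mean -0.28 ± 0.07). The full-length mean was -0.58 with median centring. MLP165 had -0.47 and -0.62 on the truncated arrays (mean -0.54 ± 0.11), but 0.09 and -0.11 on the full-length arrays (mean -0.01 ± 0.14). No full-length direction can be given for it.

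The other 3 members were not below wild type in either line by their means. MLP423 had 0.03 and 0.26 on the truncated arrays (0.15 ± 0.17) and 0.23 and 0.43 on the full-length arrays (0.33 ± 0.14), and its 4 probes gave full-length means from 0.26 to 0.33 and truncated means from 0.12 to 0.16. The full-length mean was 0.05 with median centring. MLP168 had 0.32 and 0.28 on the truncated arrays (0.30 ± 0.03) and 0.13 and 0.03 on the full-length arrays (0.08 ± 0.07). MLP31 had 0.37 and -0.14 on the truncated and 0.51 and 0.09 on the full-length arrays, a spread as large as its means (0.11 ± 0.36 and 0.30 ± 0.30).

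The single channels show where wild type and the lines overlapped. After loess normalization and scaling of the arrays to a common intensity distribution, each channel gives a log2 level, which may be compared between groups for a probe but not between probes. AT4G14060 had wild type levels of 10.28, 10.18, 10.41 and 10.25, full-length levels of 9.81 and 9.78, and truncated levels of 7.65 and 7.82. The 3 groups did not overlap, in the order wild type, full-length, truncated. MLP328 had wild type levels of 14.84, 14.52, 14.82 and 14.59, full-length levels of 13.76 and 14.19, and truncated levels of 12.51 and 12.87, in the same order and again with no overlap. MLP34 followed, with wild type levels from 14.38 to 14.58, full-length levels of 13.88 and 14.15 and truncated levels of 12.90 and 13.14.

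MLP43 kept that order within a narrower span, with wild type levels from 13.80 to 13.85, full-length levels of 13.60 and 13.47 and truncated levels of 13.39 and 13.32. For MLP329, MLP28, MLP165 and MLP168 the full-length levels overlapped wild type, and the truncated levels lay apart from both. MLP423 had its highest levels in the full-length line (13.20 and 13.33), then the truncated line (13.11 and 13.20), then wild type (12.90 to 13.08). The 2 lines shared the rounded value 13.20 there. Before rounding their levels did not overlap, but the gap is too small to resolve their order. For MLP31 all 3 groups overlapped.

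Of the members, 7 had truncated levels below all 4 wild type levels (24.2% of all genes) and 2 above all of them (26.9%). In the full-length line 4 lay below all wild type levels (23.4%) and 1, MLP423, above (27.6%). Wild type levels of a member differed by at most 0.16 between arrays of the same number, and by at most 0.41, for MLP31, over the 4 arrays.

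**Figure D2:**
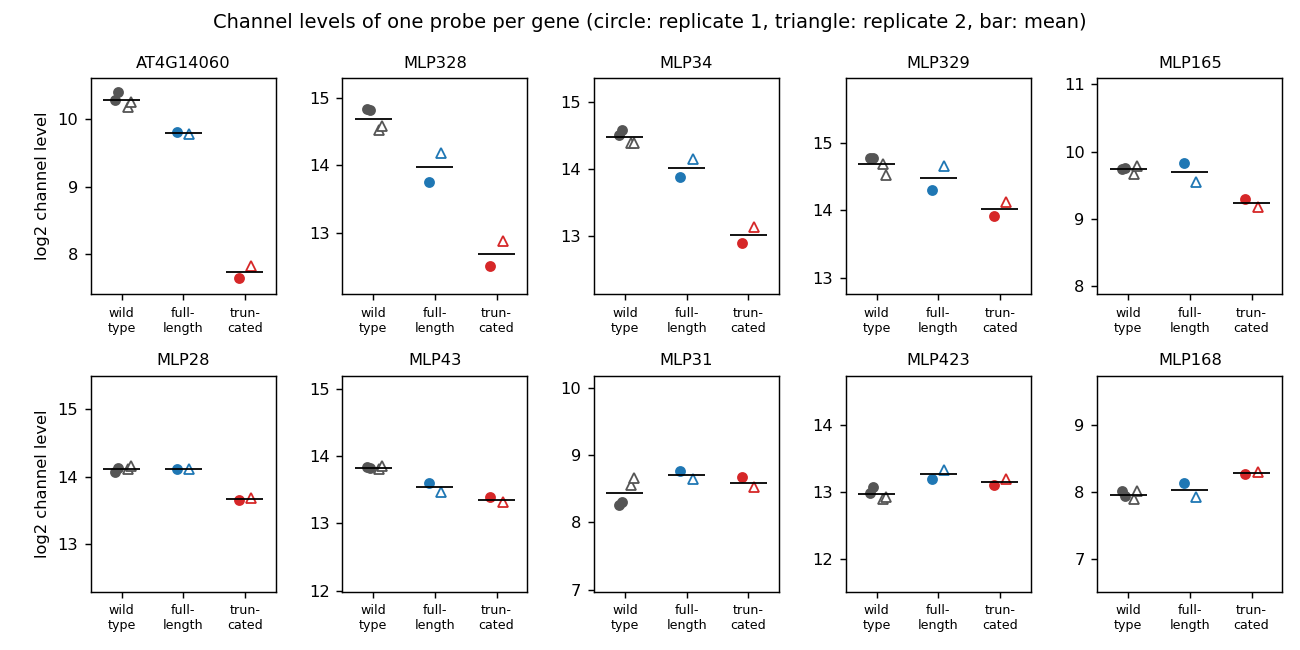
Log2 channel level (vertical axis, each panel spanning the same number of log2 units) of 1 probe per gene in the wild type, full-length and truncated channels (horizontal axis), with circles for replicate 1, triangles for replicate 2 and bars for group means. For AT4G14060 the wild type channels lie from 10.18 to 10.41, the full-length channels at 9.81 and 9.78 and the truncated channels at 7.65 and 7.82.

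Calls from the fit across all genes (limma, Benjamini-Hochberg adjusted p under 0.05) are listed as a description, since the members were chosen with these contrasts known. In the truncated line 6 members were called lower (AT4G14060, MLP328, MLP34, MLP165, MLP28 and MLP43) and 1 higher (MLP168), where 13.2% of all genes were called, 6.15% lower and 7.09% higher. The call of MLP168 was lost without truncated replicate 1 (0.28) or truncated replicate 2 (0.32), and that of MLP43 without truncated replicate 2 (-0.43). The full-length line had 2 members, AT4G14060 and MLP43, called lower and 0 higher, where 15.5% of all genes were called, 6.12% lower and 9.39% higher. Both of these calls were lost without full-length replicate 1 (-0.40 and -0.32) and without full-length replicate 2 (-0.47 and -0.23). With the replicate number, and so the dye, as a block in the fit, 10 members were called in the truncated and 7 in the full-length line, where 54.2% and 56.8% of all genes were. With median centring in place of loess, 1 and 0 were called, where 0.183% and 0.0356% of all genes were.

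The truncated line was below the full-length line for 9 of the 10 members in both replicate pairs, which 40.8% of all genes also were. For 6 of them both truncated arrays lay below both full-length arrays (25.8% of all genes). The difference of log2 ratios, truncated minus full-length, was -2.16 (SE 0.13) for AT4G14060, with -2.30 in replicate pair 1 and -2.03 in pair 2. It was -1.30 (SE 0.31) for MLP328 and -1.04 (SE 0.19) for MLP34. MLP165 and MLP28 followed with -0.53 (SE 0.11) and -0.51 (SE 0.08), both close to their truncated ratios because their full-length ratios were near 0. MLP329 had -0.38, with a 95% interval from the fit of -0.93 to 0.18. The intervals of MLP43 (-0.43 to 0.02), MLP423 (-0.50 to 0.13) and MLP31 (-0.74 to 0.37) also held 0. These intervals come from the fit without the replicate block, which counts a shift shared by same-numbered arrays as spread. In replicate pairs 1 and 2 the differences were -0.38 and -0.37 for MLP329 and -0.20 and -0.20 for MLP43. They were -0.20 and -0.16 for MLP423 and -0.14 and -0.23 for MLP31. MLP168 was the 1 member higher in the truncated line, by 0.22 (SE 0.08). With the replicate block 10 members were called between the lines, where 39.1% of all genes were.

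In that contrast, AT4G14060 and MLP28 were called (both lower in the truncated line), where 3.11% of all genes were, 2.14% lower and 0.971% higher. The call of MLP28 was lost without any one of the 4 arrays (differences from -0.52 to -0.50). MLP328 and MLP34 were not called with all arrays, but were called without any one of them, with differences from -1.68 to -0.92 and from -1.25 to -0.83, and MLP165 was called without full-length replicate 2 (-0.64). Each such fit leaves 1 array in an arm, and that array is taken to vary like the others.

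**Figure D3:**
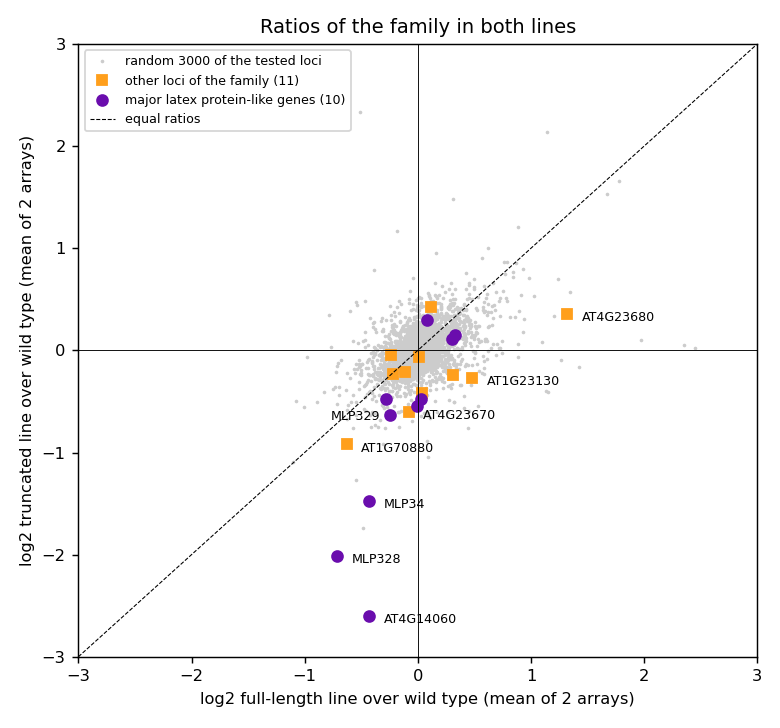
Mean log2 ratio over wild type in the truncated line (vertical axis) against the full-length line (horizontal axis) for the 10 genes (purple circles), the 11 tested other loci of the family (orange squares) and 3000 randomly drawn of the tested loci (grey dots), with a dashed line where both ratios are equal. AT4G14060, MLP328 and MLP34 lie far below the dashed line, and AT4G23680 lies to its right at 1.32 and 0.36.

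The rest of the family did not all follow the same pattern. Another 19 loci of the major latex protein and Bet v 1-like group were listed from background knowledge. Of these, 11 were tested, and the other 8 did not pass the filter on dim probes. In the truncated line 4 of the 11 were lower, 2 higher and 5 not past the threshold (median -0.23), where 6.15% of all genes were lower and 7.09% higher. In the full-length line 1 was lower, 3 higher and 7 not past it (median 0.01), where 6.12% of all genes were lower and 9.39% higher. By their truncated means, 9 of the 11 lay below 0 and 2 above, beside 7 and 3 of the members. By their full-length means 5 lay below 0 and 6 above, beside 6 and 4. Truncated minus full-length was below 0 for 9 and above 0 for 2, beside 9 and 1 of the members. In that contrast 3 of the 11 were called lower and 0 higher, where 2.14% and 0.971% of all genes were. The roles of the loci named next are not given in the gene table.

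AT4G23680 had 1.24 and 1.40 on the full-length arrays and 0.25 and 0.47 on the truncated arrays, all above 0. It rose 2.49-fold in the full-length line (1.32 ± 0.11, SD, n = 2; limma adjusted p = 0.00301) and 1.28-fold in the truncated line (0.36 ± 0.15; adjusted p = 0.0471). Its other probes gave full-length means of 1.10 and 0.38 and truncated means of 0.12 and 0.11. The locus numbered just before it, AT4G23670, fell in the truncated line (-0.60 ± 0.04; adjusted p = 0.00823) and had -0.08 ± 0.06 in the full-length line (adjusted p = 0.393). Its 3 probes gave truncated means from -0.65 to -0.60. Both loci were lower in the truncated than in the full-length line, with limma differences of -0.96 (SE 0.11; adjusted p = 0.0261) for AT4G23680 and -0.52 (SE 0.08; adjusted p = 0.0476) for AT4G23670. The difference of AT4G23670 was past the threshold in 4 of 15 alternatives and was lost without any one array, and the truncated rise of AT4G23680 was lost without truncated replicate 2 (0.25; limma adjusted p = 0.253).

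AT1G23130 had 0.49 and 0.47 on the full-length and -0.27 and -0.28 on the truncated arrays, on opposite sides of wild type. It rose in the full-length line (0.48 ± 0.01; limma adjusted p = 0.00926), fell in the truncated line (-0.27 ± 0.01; adjusted p = 0.0383) and differed between them by -0.75 (SE 0.08; adjusted p = 0.0197). Its second probe gave 0.34 and -0.33. AT1G70880 fell in both lines (-0.63 ± 0.01, adjusted p = 0.00535, and -0.92 ± 0.00, adjusted p = 0.00315). AT1G23120 fell in the truncated line (-0.42 ± 0.09; adjusted p = 0.0358), where AT3G26450 rose (0.42 ± 0.02; adjusted p = 0.0152). Without truncated replicate 1 neither passed (limma adjusted p = 0.135 and 0.0694), and the truncated fall of AT1G23130 was lost without truncated replicate 1 or 2 (adjusted p = 0.21 and 0.214). Median centring ended every call named here, with all directions kept, and moved the full-length rise of AT1G23130 to 0.12 and its truncated fall to -0.42. With Agilent's own log ratios or the authors' deposited table, the full-length call of AT1G23130 was lost (limma adjusted p = 0.0537 and 0.0539), as was its call between the lines (0.092 and 0.0925). With the replicate block 8 of the 11 were called in the full-length line, where 56.8% of all genes were.

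Many of these genes lie in clusters. The gene table places 7 of the 10 members on chromosome 1. From MLP28 to MLP43 it lists, in order, MLP28, MLP31, MLP34, AT1G70860, AT1G70870, AT1G70880, AT1G70885 (a transcribed pseudogene) and MLP43. Within this run the truncated ratios went from -1.47 for MLP34 to 0.11 for MLP31, its direct neighbour, and AT1G70870 was not tested. AT1G70860 had -0.05 ± 0.05 in the truncated line (limma adjusted p = 0.646). AT1G70885 fell in both lines (-0.77 ± 0.03, adjusted p = 0.00434, and -0.32 ± 0.05, adjusted p = 0.0247), next to AT1G70880 and MLP43, which were also below 0 on all arrays. Its full-length call was lost without full-length replicate 1 or 2 (adjusted p = 0.0996 and 0.171).

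Neighbours were taken by position, as the 3 genes on each side. On one side of the run AT1G70820 fell in both lines (-0.39 ± 0.05, limma adjusted p = 0.019, in the truncated and -0.32 ± 0.01, adjusted p = 0.0248, in the full-length line), and AT1G70810 rose in the full-length line (0.88 ± 0.03; adjusted p = 0.00322) with -0.04 ± 0.03 in the truncated line. The full-length call of AT1G70820 was lost without full-length replicate 1 or 2, and its truncated call without truncated replicate 1 or 2. On the other side CLE17 and AT1G70900 had -0.07 ± 0.08 and 0.17 ± 0.01 in the truncated line, not past the threshold. Around AT4G14060 the 3 tested neighbours had truncated means from 0.07 to 0.12, and around MLP328 and MLP329 the 2 tested neighbours had -0.29 and -0.19. Of these 5, 0 passed in either line (limma adjusted p from 0.0969 upward). Of all genes, 13.2% passed in the truncated and 15.5% in the full-length line, so 5 genes are too few to set that 0 apart. Of the genes around MLP165, its direct neighbour AT1G35255 had -0.13 ± 0.08 in the truncated line (limma adjusted p = 0.388). The next gene, AT1G35250, also named ALT2 for acyl-lipid thioesterase, fell in the truncated line (-0.84 ± 0.08; limma adjusted p = 0.00413). Beside MLP168, AT1G35320 rose in the full-length line (0.37 ± 0.08; limma adjusted p = 0.02), a call that was lost without full-length replicate 1 (0.32). Median centring ended every call of these neighbours in either line, with no change of direction: the limma adjusted p was then 0.683 for AT1G70810 in the full-length line, 0.396 for AT1G35250 and 0.525 for AT1G70885 in the truncated line.

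**Figure D4:**
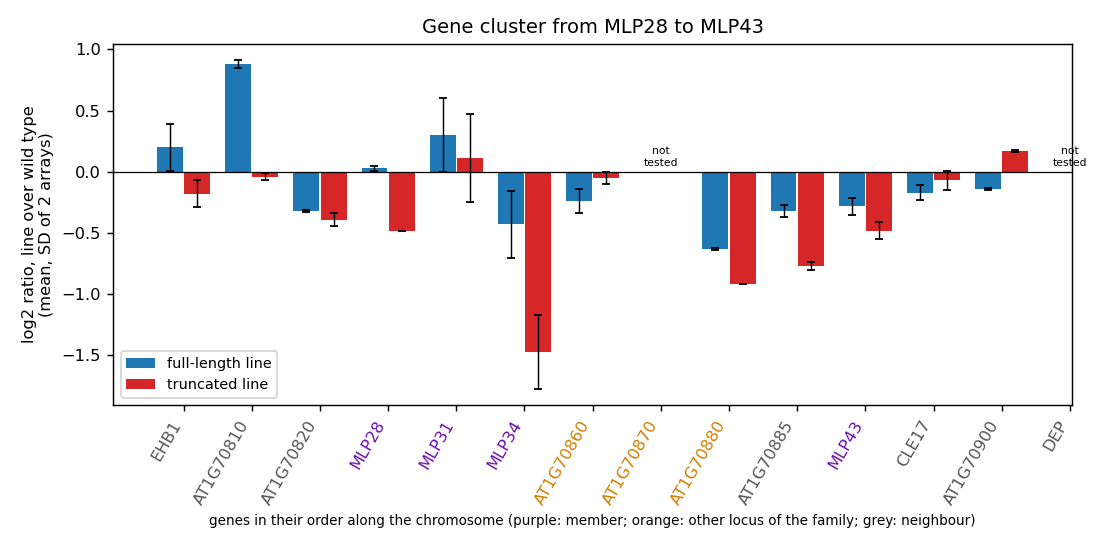
Mean log2 ratio of line over wild type (vertical axis, bars from 0, error bars SD of 2 arrays) for the genes from 3 before MLP28 to 3 after MLP43 in chromosome order (horizontal axis, not to scale), in the full-length (blue) and truncated (red) line. MLP34 at -1.47 and AT1G70880 at -0.92 have the longest truncated bars, and MLP31 between MLP28 and MLP34 is at 0.11.

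The genes whose 4 ratios lay nearest to the 3 members with the lowest mean ratio, which are also the largest by size, were found by Euclidean distance over the 4 arrays among 20320 loci outside the family. Nearest to AT4G14060 were the cytochrome P450 gene CYP712A1 (distance 0.343), AT1G52820 (0.421) and VSP2, a vegetative storage protein gene (0.593). CYP712A1 had -0.45 and -0.35 on the full-length and -2.67 and -2.75 on the truncated arrays. Nearest to MLP328 were VSP1 (0.607), VSP2 (0.692) and AT5G37990 (0.781). VSP1 had -0.68 and -0.54 on the full-length and -2.22 and -2.10 on the truncated arrays, with less difference between the dye orientations than MLP328 had. Nearest to MLP34 were GSTF14, a glutathione transferase gene of the phi class (0.319), AT4G29270 (0.445) and AT2G38390 (0.482). The ranking rests on 4 arrays, with 1 array per line and dye orientation.

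Whole plants mix root and shoot, so root and green tissue markers were read beside these ratios. Fewer cells of a type and less RNA per cell cannot be told apart in whole plants. Of all genes, 6.15% were called lower and 7.09% higher in the truncated line, and 6.12% lower and 9.39% higher in the full-length line. Of 26 tested root markers (28 listed), 2 were lower and 3 higher in the truncated line, with a median of -0.05. In the full-length line 8 were lower and 1 higher, with a median of -0.23. The root marker median was -0.04 and -0.10 on the truncated arrays and -0.21 and -0.28 on the full-length arrays. Single root markers ran from -1.08 to 2.19 in the truncated line and from -0.76 to 0.30 in the full-length line. Of 18 green tissue markers 0 were called in the truncated line (median -0.11), and 4 lower and 0 higher in the full-length line (median -0.24). Their median was -0.44 and -0.37 on the replicate 1 arrays and 0.00 and 0.12 on the replicate 2 arrays. With median centring the green tissue median was -0.29 in the truncated and -0.64 in the full-length line, and the root marker median -0.09 and -0.35. The part of tissue makeup in the members' ratios was not tested.

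**Figure D5:**
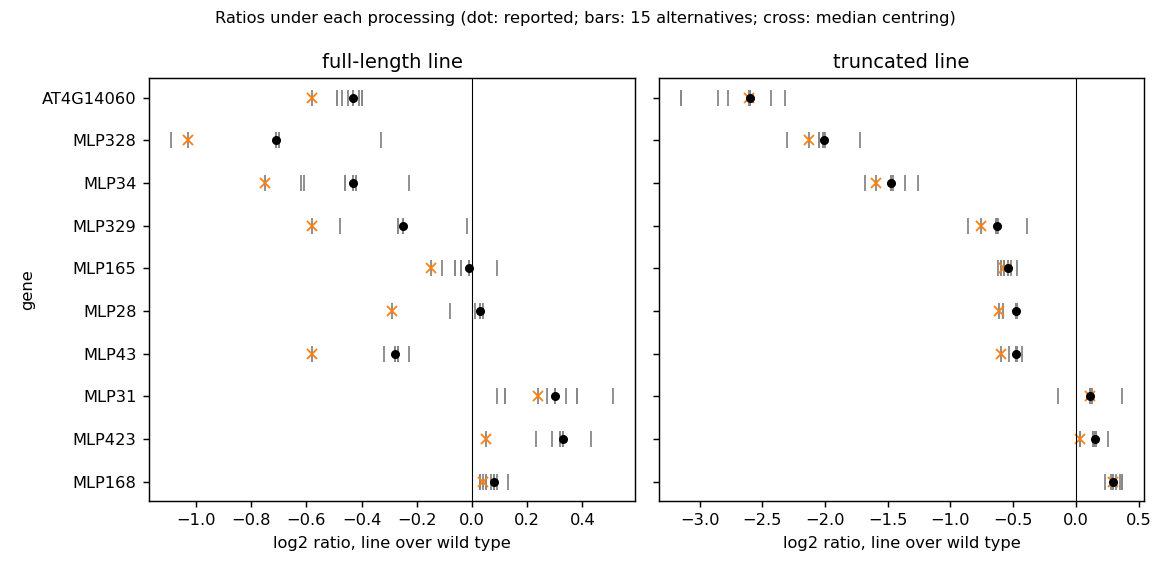
Log2 ratio of line over wild type (horizontal axes) of the 10 genes (vertical axis) in the full-length (left) and truncated (right) line, with a dot for the reported value, a bar for each of 15 alternative processings and a cross for median centring. In the truncated line AT4G14060 stays between -3.15 and -2.32 and MLP34 between -1.68 and -1.26, and in the full-length line MLP28 goes from -0.29 to 0.04.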

How the data were processed

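Per the file headers, the authors scanned 4 two-colour arrays with Agilent Feature Extraction 10.7.3.1. The deposited scanner files hold median intensity of spot and background per channel, processed intensity, flags (other values) and a log10 ratio of Cy5 over Cy3. The deposited table was set against the scanner ratios, turned to put wild type below the line. The log2 values deposited by the authors run in that direction, with slopes of 0.9979 to 0.9997 and column medians of 0.008, -0.055, 0.04 and -0.07. Outlier-marked spots (20 to 50 gene spots per array) were left out, an order taken over from an earlier look at these data. Median signals, used because no mean signals are given, were corrected with normexp (offset 50), log ratios were loess-normalized (control spots at weight 0), and each ratio was turned to line over wild type. The 2 arrays of a line correlated across probes at r = -0.102 and -0.17 in scanner ratios over all probes, and at 0.72 and 0.704 over tested features after loess.

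Tested features had a probe that was well above background either in a line's own channel on each of its 2 arrays or in all 4 wild type channels. Its brightest probe was used. Both lines were fitted together with limma 3.58.1 in R 4.3.3 (2 residual and 3.182 prior degrees of freedom), adjusted over 22454 features. Of 20341 with a locus, 20143 matched the RefSeq table for TAIR10.1, used for names and gene order only. Nothing says that replicates came from separate cultures, beyond the label biological, and p-values measure the spread between these arrays. Same-numbered arrays deviated together (correlation across features 0.775), and they share a dye orientation. All arrays lay on 1 slide, scanned in 1 scan.

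Members and lists were chosen with earlier results of these data known. Named beside the members were up to 6 called loci of the listed family by size of ratio, 3 nearest loci for each of 3 members, and neighbours by position. Alternatives are given below. Protein and promoter sequences were not analysed here, and signal shared between probes of close family members was not tested.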

Additional observations from a re-analysis of the deposited data

Results flagged for a closer look

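The lines differed in the contrast of truncated minus full-length, a test built from the same ratios that chose the members, for AT4G14060 (-2.16) and MLP28 (-0.51). Among the other loci of the family they differed for AT1G23130 (-0.75), AT4G23670 (-0.52) and AT4G23680 (-0.96). Of 15 alternatives, the call was kept in 14 for AT4G14060 but in 4 for MLP28. It was kept in 11 for AT1G23130, 4 for AT4G23670 and 10 for AT4G23680. The 4 wild type levels of a member spanned at most 0.41, with a median span of 0.18. Whether 1 of them stood apart from the rest was not tested.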

How the results depend on the processing

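Over 10 members, 2 lines, their difference and 15 alternatives (450 values), 361 kept direction and side of the threshold, 42 lost a call, 41 gained one and 6 turned sign. The truncated ratio of AT4G14060 stayed called throughout (-3.15 to -2.32; adjusted p up to 0.0144), and those of MLP328 and MLP34 in all but median centring (-2.13 and -1.59). The values that turned sign were MLP28 in the full-length line (-0.29 with median centring, -0.08 with the mean over probes), MLP165 in the full-length line (-0.11 to 0.09 over the fits that leave out an array), MLP31 in the truncated line (-0.14 to 0.37 over them), and MLP31 between the lines (-0.44 to 0.07). Of 315 values for called loci outside the members, 234 stayed called, 81 lost the call and 0 turned sign. Members called were 2 in the full-length line, 7 in the truncated line and 2 between the lines (15.5%, 13.2% and 3.11% of all genes). Median centring called 0, 1 and 0 (0.0356%, 0.183% and 0% of all genes), with medians of -0.43 and -0.60, and 0 and 0 of the other family loci. Agilent's own log ratios and the deposited table each called 0 in the full-length line and 1 between the lines, with medians of -0.16 and -0.54. Of all genes, each called 14.3% in the full-length line, and they called 0.73% and 0.72% between the lines. An offset of 10 called 0 and 1, and 3 other family loci in the truncated line, where 13%, 1.39% and 9.62% of all genes were called. Keeping outlier-marked spots, or leaving them out after the background correction (added after seeing the data), called 0 and 1, with a full-length median of -0.15 and 2 other family loci in the full-length line. Of all genes, 4.53% or 4.56% were then called in the full-length line, and 1.63% between the lines. No filter called 0, 4 and 1 (3.01%, 2.05% and 0.252% of all genes), and 2 other family loci in the truncated line. The mean over probes called 4 in the full-length line (17.1% of all genes; medians -0.16 and -0.56). The replicate block, where the same number also means the same dye, called 7, 10 and 10 members and 8 and 9 other family loci, against 4 and 6 without it. The block called 56.8%, 54.2% and 39.1% of all genes. Leaving out 1 array gave 0 to 5 members in the full-length line, 6 to 8 in the truncated line and 3 to 4 between the lines, where 7.84% to 19.2%, 5.89% to 15.8% and 3.18% to 3.57% of all genes were called. It gave full-length medians from -0.13 to -0.07, truncated medians from -0.51 to -0.47, and 3 to 4 and 3 to 6 other family loci. Over all genes the calls fell from 3483 and 2973 to 8 and 41 with median centring and to 1030 and 699 with no filter, and rose to 12749 and 12174 with the block. The full-length count fell to 1018 with outlier-marked spots kept, 1023 with them left out afterwards, and 1760 or 1813 without full-length replicate 1 or 2. The truncated count fell to 1323 or 1625 without truncated replicate 1 or 2. Between the lines, 698 calls became 0 with median centring, 164 and 162 with Agilent's ratios and the table, 313 with an offset of 10, 367 with either treatment of outlier spots, 86 with no filter and 8777 with the block. The cause of these changes was not tested. A slide block (1 slide) and the sequence comparisons were not run. With 2 arrays per line, differences near the spread of 1 array are not resolved.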
